A study of Danio rerio with 6 samples.

Results

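Clock-output bZIP factors are a small family of transcription factors that carry the rhythm of the circadian clock to genes further downstream. The PAR factors (*hlfa*, *hlfb*, *tefa*, *tefb*, *dbpa* and *dbpb*), named for a region rich in proline and acidic residues, bind a DNA element called the D-box and activate transcription from it. The *nfil3* factors (*nfil3*, *nfil3-2*, *nfil3-5* and *nfil3-6*) bind the same element and repress. In zebrafish the D-box also links gene expression to light, and in mice Nfil3 is needed for natural killer and innate lymphoid cells, lineages of the immune system in which the interleukin 7 receptor is also at work. The genes were taken by name, as probe sets of the array whose annotation gives one of these symbols and no other, and all 10 were found among 19260 genes. Each has 1 probe set of its own, so no choice between probe sets was made. RefSeq holds 6 *nfil3* genes for zebrafish, of which 4 are described here.

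The arrays compared 3 pools of *il7r*-/- larvae with 3 pools of WT larvae of the Tu strain at 4 dpf, which came from 3 batches according to the methods. The *il7r*-/- larvae were homozygous for a small frameshift deletion in *il7r* made with CRISPR/Cas9, and came from 1 mutant line. The husbandry notes give 28.5 °C with 10 h of dark and 14 h of light a day. The methods of the paper name this cycle for adult WT fish and give no light cycle for the embryos and larvae. The hour at which larvae were collected is not given in the sources used here, so an effect of genotype and an effect of collection hour cannot be told apart. Whole larvae were used, and fewer cells of a type and less RNA per cell cannot be told apart in such RNA.

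Values are log2 expression values made with RMA, and a change is *il7r*-/- minus WT on that scale. A gene was called where its fold change exceeded 1.5 and its p, adjusted across the 75212 probe sets of the array, was under 0.05. The arrays had similar distributions, with medians of 3.42 to 3.44 in *il7r*-/- and of 3.41 to 3.44 in WT. RMA brings arrays to a common distribution, so this likeness does not bear on how alike the samples were. WT replicate 3 stood apart, since it correlated with WT replicates 1 and 2 at 0.965 across probe sets. WT replicates 1 and 2 correlated with each other at 0.977. Their highest correlations with an *il7r*-/- array were 0.970 and 0.971, above those with WT replicate 3. The *il7r*-/- arrays correlated among themselves at 0.979 to 0.980. The probe set of *il7r* itself lay near the array's background, at 1.42, 1.64 and 1.71 in *il7r*-/- larvae and at 1.40, 1.80 and 1.76 in WT larvae, so it gives no check of the genotype. Neuron markers had a mean level of 8.97 to 9.11 in *il7r*-/- arrays and of 9.03 to 9.09 in WT arrays, and muscle markers one of 10.1 to 10.2 in *il7r*-/- arrays and of 9.72 to 10.1 in WT arrays. The number of arrays limits the precision.

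*hlfa* was the only one of the 10 genes that passed the test, and it fell in *il7r*-/- larvae. Among the 19260 genes, 0.182% were called lower and 0.0519% were called higher. In total 9 of the 10 genes had a change below 0, against 54.4% of all genes. In 6 of them the highest *il7r*-/- array was below the lowest WT array, which was so for 13.4% of all genes, and these 6 also had an unadjusted p under 0.05 in the lower direction, as 8.27% of all genes had. In *nfil3-5* alone the lowest *il7r*-/- array was above the highest WT array, against 8.84% of all genes, and in *hlfb*, *tefa* and *nfil3-2* the groups overlapped. None of the 10 genes lies on the chromosome of *il7r* in the GRCz12tu assembly.

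**Figure D1:**
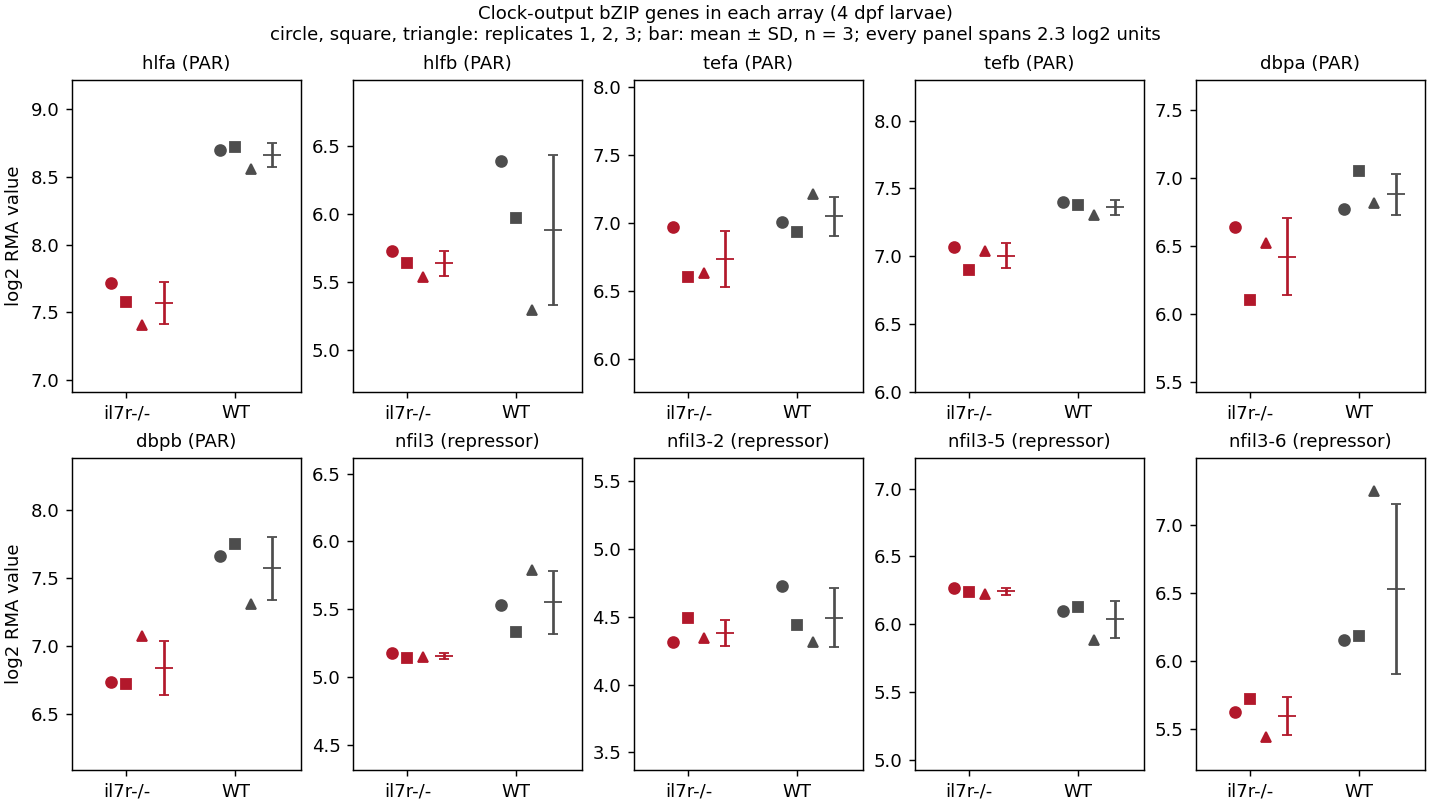
Log2 RMA values of the 10 genes in each array, with *il7r*-/- to the left of WT, replicates 1, 2 and 3 as circle, square and triangle, and the mean ± SD (n = 3) beside them. All panels span the same number of log2 units, and the widest gap between groups is that of *hlfa*.

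*hlfa* is a gene of the hepatic leukaemia factor, which in mammals cycles in liver and kidney. It had values of 7.72, 7.58 and 7.41 in *il7r*-/- larvae, against 8.70, 8.72 and 8.56 in WT larvae. The highest *il7r*-/- array thus lay below the lowest WT array, and the spread within either group was small beside the gap. The means were 7.57 ± 0.16 (SD, n = 3) in *il7r*-/- larvae and 8.66 ± 0.09 (SD, n = 3) in WT larvae, a change of -1.09 (standard error 0.12, 95% interval -1.39 to -0.79, adjusted p = 0.0364 from limma). On a linear scale this is an expression 53.0% lower in *il7r*-/- larvae. Only 0.410% of all genes had a more negative change. The call ended without any 1 of the 6 arrays, with an adjusted p of 0.127, 0.175 and 0.143 without *il7r*-/- replicates 1, 2 and 3 and of 0.131, 0.119 and 0.0506 without WT replicates 1, 2 and 3, while the change stayed between -1.17 and -1.01. It also ended with the replicate number as a block (adjusted p = 0.137), and whether these numbers mark the 3 batches of larvae is not given in the sources used here.

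*hlfb*, the paralogue of *hlfa*, did not follow it closely. Its values were 5.73, 5.64 and 5.54 in *il7r*-/- larvae, against 6.39, 5.97 and 5.29 in WT larvae. The *il7r*-/- arrays lay within the range of the WT arrays, since WT replicate 3 was the lowest of all 6. The change was -0.25 (95% interval -0.89 to 0.40, adjusted p = 0.769). Without WT replicate 3 it was -0.54 and without WT replicate 1 it was 0.0067. The difference between the changes of *hlfa* and *hlfb* was -0.84, and -0.60 without WT replicate 3. The within-array difference of the pair did not overlap between groups, at 1.87 to 1.99 in *il7r*-/- arrays and 2.31 to 3.27 in WT arrays (exact permutation test with all arrays, two-sided, p = 0.1, the smallest that 3 arrays against 3 allow, adjusted p = 0.2 over 4 paralogue pairs).

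The *tef* genes encode the thyrotroph embryonic factor, and *tefa* is known in zebrafish as a light-induced gene whose product acts on the D-box of *per2*. *tefa* had values of 6.97, 6.60 and 6.63 in *il7r*-/- larvae, against 7.01, 6.93 and 7.21 in WT larvae, and *il7r*-/- replicate 1 lay within the WT range. Its change was -0.32 (95% interval -0.67 to 0.04, adjusted p = 0.467). *tefb* had values of 7.07, 6.90 and 7.04 in *il7r*-/- larvae, against 7.40, 7.38 and 7.30 in WT larvae, with no overlap. This was the tightest of the PAR genes in WT, where its arrays spanned 0.10, and its change was -0.36 (95% interval -0.61 to -0.10, adjusted p = 0.274). The changes of the pair differed by 0.04 (exact permutation test, two-sided, p = 0.8, adjusted p = 0.8).

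The *dbp* genes are named for a factor that binds a site in the albumin promoter, and in mammals Dbp is driven directly by the core clock. *dbpb* had values of 6.73, 6.72 and 7.07 in *il7r*-/- larvae, against 7.66, 7.75 and 7.31 in WT larvae. The groups did not overlap, and *il7r*-/- replicate 3 and WT replicate 3 were the arrays nearest to each other. Its change of -0.73 (95% interval -1.13 to -0.33, adjusted p = 0.185) was the largest among the PAR genes after that of *hlfa*, and it did not pass the test. *dbpa* had values of 6.64, 6.10 and 6.52 in *il7r*-/- larvae, against 6.77, 7.05 and 6.82 in WT larvae, also without overlap. Its change was -0.46 (95% interval -0.87 to -0.05, adjusted p = 0.369). The changes of the *dbp* pair differed by 0.27 (exact permutation test, two-sided, p = 0.3, adjusted p = 0.4).

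The repressors were less uniform in direction than the PAR genes, with 3 of 4 changes below 0 against 6 of 6. *nfil3*, which was named in mammals for its regulation by interleukin 3, had values of 5.18, 5.14 and 5.15 in *il7r*-/- larvae, against 5.53, 5.33 and 5.79 in WT larvae. The *il7r*-/- arrays lay within 0.04 of each other and below all WT arrays, and the change was -0.39 (95% interval -0.73 to -0.06, adjusted p = 0.354). *nfil3-5* was the exception in direction. It had values of 6.27, 6.24 and 6.22 in *il7r*-/- larvae, against 6.10, 6.13 and 5.88 in WT larvae, a change of 0.21 (95% interval -0.07 to 0.48, adjusted p = 0.533). All *il7r*-/- arrays were above all WT arrays here, and the interval still holds 0.

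*nfil3-2* and *nfil3-6* lie next to each other in the GRCz12tu assembly and had unlike values. *nfil3-6* had 5.62, 5.72 and 5.44 in *il7r*-/- larvae, against 6.15, 6.18 and 7.25 in WT larvae. The groups did not overlap, and WT replicate 3 lay 1.08 above the mean of the other WT arrays, which were 0.03 apart. The change was -0.93 (95% interval -1.66 to -0.21, adjusted p = 0.312) with all arrays and -0.57 without WT replicate 3. *nfil3-2* had 4.31, 4.49 and 4.34 in *il7r*-/- larvae, against 4.73, 4.44 and 4.31 in WT larvae, which overlap. Its change was -0.11 (95% interval -0.45 to 0.23, adjusted p = 0.801), and it was 0.005 without WT replicate 1. The changes of these neighbours differed by 0.82, and by 0.37 without WT replicate 3 (exact permutation test with all arrays, two-sided, p = 0.1, adjusted p = 0.2).

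**Figure D2:**
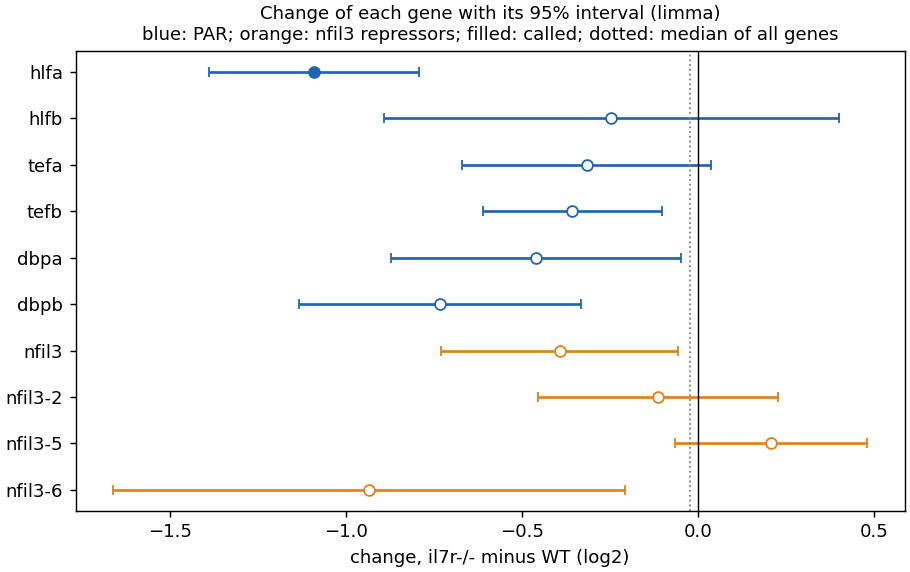
Change of each gene (*il7r*-/- minus WT, log2) with its 95% interval from limma, PAR genes in blue and *nfil3* genes in orange, a filled point for the called gene. The point of *hlfa* lies at -1.09, that of *nfil3-5* is the only one above 0, and the intervals of *hlfb*, *tefa*, *nfil3-2* and *nfil3-5* hold 0. The intervals are not adjusted for the number of probe sets, so an interval without 0 is not a call.

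As a group, all 6 PAR genes had a change below 0, from -1.09 to -0.25, with a median of -0.41. The *nfil3* genes ran from -0.93 to 0.21, with 3 of 4 below 0 and a median of -0.25. The median over all genes was -0.02. Activators and repressors therefore did not part into a lower and a higher class in *il7r*-/- larvae. To set them against each other within an array, each gene was taken as its deviation from its own mean over the 6 arrays. The PAR mean was -0.16, -0.38 and -0.27 in *il7r*-/- replicates 1, 2 and 3, against 0.35, 0.33 and 0.11 in WT replicates 1, 2 and 3. These groups did not overlap. The *nfil3* mean was -0.15, -0.10 and -0.21 in *il7r*-/- arrays, against 0.13, 0.02 and 0.31 in WT arrays. It too was lower in every *il7r*-/- array, with a smaller distance.

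The PAR mean minus the *nfil3* mean was -0.005, -0.28 and -0.06 in *il7r*-/- arrays, against 0.22, 0.31 and -0.20 in WT arrays. WT replicate 3 fell among the *il7r*-/- arrays in this balance, so the groups overlapped. The balance was lower by 0.23 in *il7r*-/- larvae with all arrays, and by 0.38 without WT replicate 3. In that array the *nfil3* mean was the highest of the 6 and the PAR mean the lowest of the WT arrays. When *nfil3-6* was left out, a choice made after seeing the data, the *nfil3* mean change was -0.10 in place of -0.31. The change of the balance was then -0.43. The balance itself was then -0.10, -0.36 and -0.19 in *il7r*-/- arrays, against 0.21, 0.34 and 0.10 in WT arrays, without overlap. The *nfil3* mean of WT replicate 3 was then 0.02, below the 0.14 of WT replicate 1. No test was made on these means, which are a description of genes chosen with results known.

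**Figure D3:**
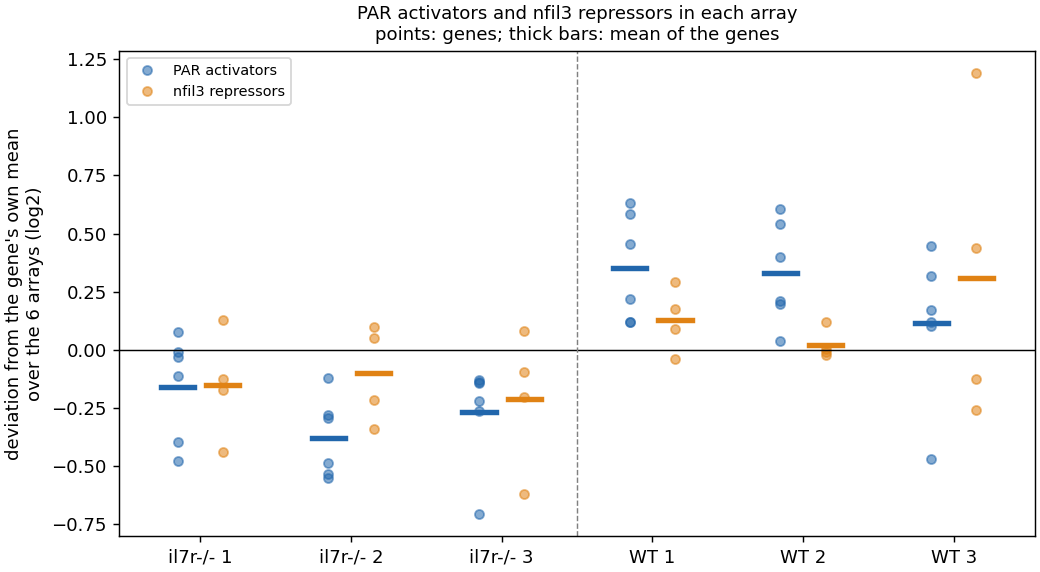
Deviation of each gene from its own mean over the 6 arrays (log2), by array, PAR genes in blue and *nfil3* genes in orange, thick bars for the mean of the genes. The PAR bars are below 0 in the 3 *il7r*-/- arrays and above 0 in the 3 WT arrays, and the *nfil3* point far above the rest in WT replicate 3 is *nfil3-6*.

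The distance of WT replicate 3 from the other WT arrays differed from gene to gene. WT replicate 3 was lower in *hlfb* by 0.89, in *dbpb* by 0.40 and in *hlfa* by 0.15 than the mean of WT replicates 1 and 2. It was also lower in *nfil3-2* and *nfil3-5*, by more than in *hlfa*, and in *tefb* and *dbpa*, by less. It was higher in *nfil3-6* by 1.08, in *nfil3* by 0.36 and in *tefa* by 0.24. The *nfil3* genes were thus not all higher in this array, nor the PAR genes all lower. WT replicates 1 and 2 differed by at most 0.42 in any of the 10 genes. The *il7r*-/- arrays spanned from 0.04 in *nfil3* to 0.54 in *dbpa*. The keratin genes *krt4* and *krt5*, markers of epidermis, had a mean level of 9.28 to 9.70 in *il7r*-/- arrays and of 8.53 in WT replicate 3, against 10.4 in the highest WT array. The part of this difference in the values of the clock-output genes was not tested.

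**Figure D4:**
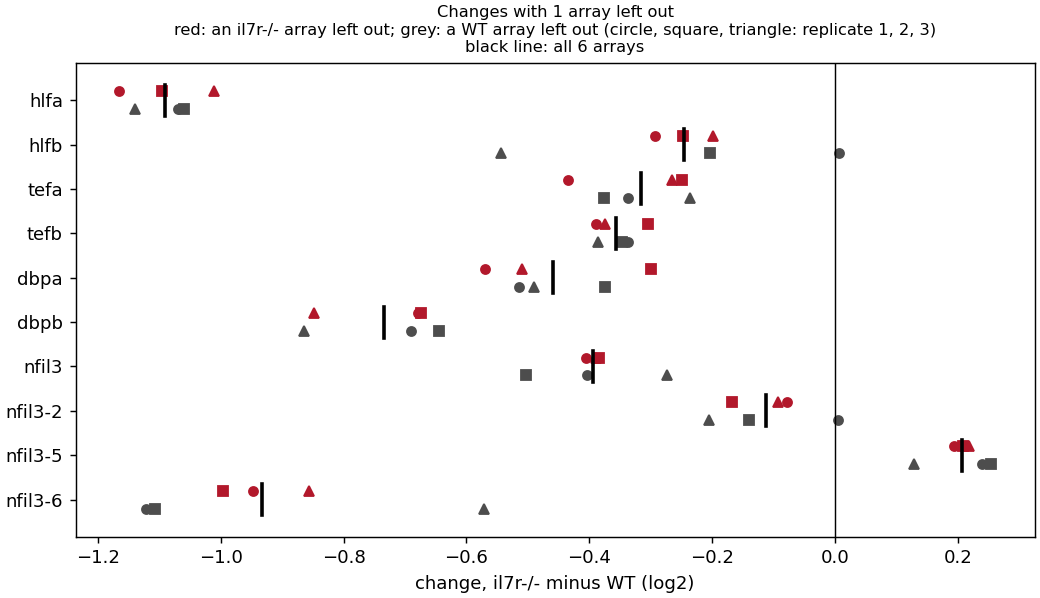
Change of each gene (*il7r*-/- minus WT, log2) with 1 array left out, red for an *il7r*-/- array and grey for a WT array, shapes for replicates 1, 2 and 3, and a black line for the value with all 6 arrays. The values of *hlfa* stay between -1.17 and -1.01, while *hlfb* and *nfil3-2* reach 0 without WT replicate 1 and *nfil3-6* lies at -0.57 without WT replicate 3.

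Genes of the core clock, which sets the rhythm that PAR factors pass on, were taken as lists around the family. At least *per2* among them has a D-box itself, so the lists do not hold only genes that act before the PAR factors. Of 16 measured clock repressors, the *per*, *cry*, *nr1d*, *bhlhe4* and *ciart* genes, 1 was called lower and none higher. Among all genes 0.182% were called lower and 0.0519% higher. All 16 repressors had a change below 0, against 54.4% of all genes, and the median was -0.55. In 13 of the 16 the groups did not overlap, with the *il7r*-/- arrays lower, against 13.4% of all genes. The called gene was *nr1d1*, a nuclear receptor known in mammals to repress Nfil3 and the Bmal1 gene. It had values of 7.39, 7.37 and 7.42 in *il7r*-/- larvae, against 8.64, 8.59 and 8.27 in WT larvae. The change of -1.11 (standard error 0.13, adjusted p = 0.0390) was nearly that of *hlfa*. The call of *nr1d1* held without WT replicate 3 and ended without any 1 of the other 5 arrays.

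Among 10 measured clock activators, the *clock*, *npas2*, *bmal* and *ror* genes, none passed the test. The median was -0.01, with 5 changes below 0 and 5 above. The largest were *npas2*, a partner of Bmal proteins, at -0.61 (adjusted p = 0.189) and the nuclear receptor gene *rorcb* at 0.56 (adjusted p = 0.309). *clocka*, *bmal1a* and *bmal1b* had changes of 0.07, 0.07 and -0.07, and *rorb* and *bmal2* of 0.05 and 0.14. *clockb*, *roraa* and *rorab* were lower, at -0.18, -0.30 and -0.34. In 2 genes the *il7r*-/- arrays all lay below the WT arrays (13.4% of all genes), and in 2 all above (8.84% of all genes). Without WT replicate 3, 7 of the 10 changes were below 0, with a median of -0.08. The median of this list thus lay nearer 0 than those of the PAR genes and the clock repressors. The difference between lists was not tested.

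In zebrafish, photolyase and other DNA repair genes answer to light, in part through D-boxes. None of 6 such genes passed the test, 5 had a change below 0 (54.4% of all genes), 4 of them with no overlap between groups (13.4% of all genes), and the median was -0.44. Among these 4, *neil1* was dim, with means of 2.81 in *il7r*-/- and 3.29 in WT larvae. The largest changes were -0.68 in *cry-dash*, which encodes a photolyase-like protein (adjusted p = 0.192), and -0.55 in *xpc*, which encodes a DNA damage sensor (adjusted p = 0.179). The photolyase gene *cpdp* had the same mean in both groups.

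Genes known in mammals as targets of PAR factors had a median of -0.41 over 7 genes. None was called, 6 had a change below 0 and 5 of these had no overlap between groups, against 54.4% and 13.4% of all genes. Among the 5, *cyp7a1* was dim, with means of 2.44 in *il7r*-/- and 2.86 in WT larvae. *tshba*, also below 0 but with overlap, was dim at 3.09 and 3.17. *pdxka*, which encodes the pyridoxal kinase that makes active vitamin B6, had values of 3.60, 3.98 and 3.80 in *il7r*-/- larvae, against 4.87, 4.71 and 5.05 in WT larvae. Its change of -1.08 (standard error 0.15, 95% interval -1.44 to -0.73, adjusted p = 0.0609) was close in size to that of *hlfa* and missed the threshold. Its paralogue *pdxkb* had a change of 0.12 (adjusted p = 0.747). *alas1*, which encodes the first enzyme of haem synthesis, had a change of -0.63 (adjusted p = 0.301). C/EBP genes, bZIP relatives that are no part of the clock, had a median of 0.08 over 6 genes, with none called. The largest of them were *cebp1* at 0.37 (adjusted p = 0.533) and *ddit3* at 0.22 (adjusted p = 0.612).

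**Figure D5:**
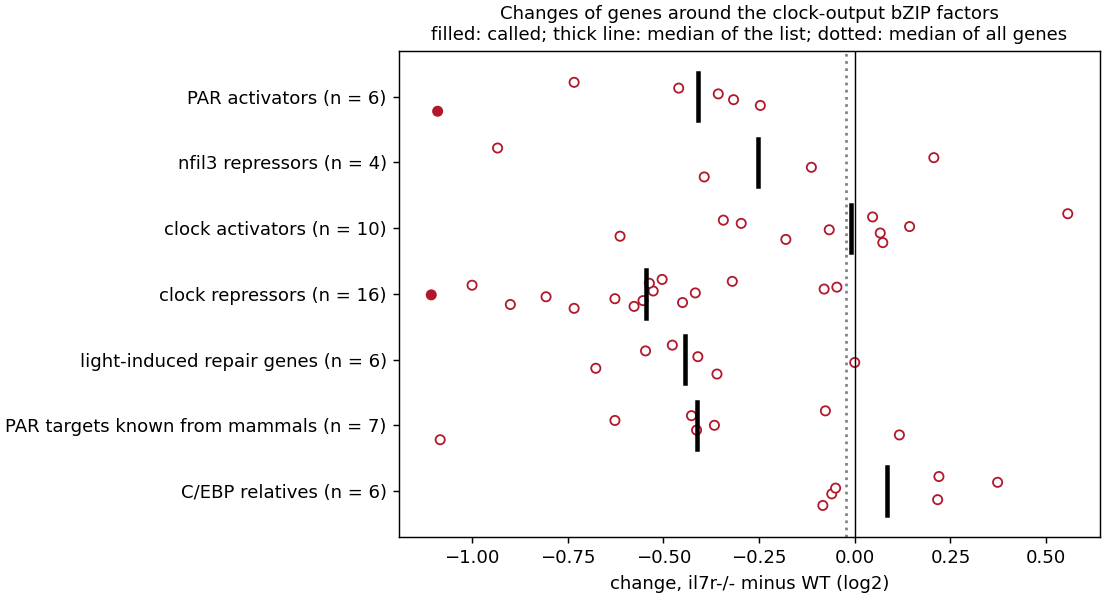
Changes (*il7r*-/- minus WT, log2) of the PAR and *nfil3* genes and of 5 lists around them, 1 point a gene, filled where called, with the median of each list as a thick line and the median of all genes as a dotted line. Medians lie at -0.41 for the PAR genes, -0.55 for the clock repressors, -0.01 for the clock activators and 0.08 for the C/EBP genes.

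Of 16 measured marker genes of the eye, 1 was called lower, against 0.182% of all genes. A marker counts as measured where a probe set names it alone under the symbol used. *rho* and *arr3a* had no such probe set, while the paper reports both as lower in its microarray and by qRT-PCR. It also reports smaller areas of the cone label Zpr1 and the rod label Zpr3 in the retina at younger stages. Photoreceptor markers, 9 of 11 measured, had a mean level of 6.48 to 7.03 in *il7r*-/- arrays and of 7.73 to 8.42 in WT arrays, and lens markers, 7 of 7 measured, had 5.85 to 6.48 in *il7r*-/- arrays and 6.92 to 7.47 in WT arrays. All 16 of these markers had a change below 0, against 54.4% of all genes, and the photoreceptor gene *rcvrn3* was the 1 called, with no lens marker called. Pineal markers, 4 of 5 measured, had a mean level of 4.18 to 4.33 in *il7r*-/- arrays and of 4.36 to 4.68 in WT arrays, and liver markers, 4 of 6 measured, had 3.89 to 3.98 in *il7r*-/- arrays and 4.08 to 4.37 in WT arrays. Markers of leukocytes, 7 of 7 measured, had 3.48 to 3.56 in *il7r*-/- arrays and 3.41 to 3.51 in WT arrays. Several of them were dim, with means in *il7r*-/- and WT larvae of 2.68 and 2.72 for *lck* and of 3.04 and 3.06 for *rag1*. The liver marker *ttr* was dim too, at 3.15 and 3.36. The paper reports a smaller area of *rag1* signal in the thymus of *il7r*-/- larvae. Dim probe sets in whole larvae may miss such a change, so these values do not show unchanged leukocytes. The part of the eye, pineal, liver and leukocyte markers in the lower values of *hlfa* and its relatives was not tested.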

How the data were processed

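RNA of whole larvae was hybridized to Affymetrix Zebrafish Gene 1.0 ST arrays and analysed by the authors in Expression Console. RMA, named in the submitters' notes, removes background, brings the arrays to a common distribution and gives 1 value for each probe set. The deposited values were read as log2, a base that the sources do not name. They were used as deposited. Of 75212 probe sets, 20806 name 1 gene alone in the platform annotation and 855 name several and were given to none. A gene was represented by its brightest probe set.

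Genotypes were compared in R 4.3.3 with limma 3.58.1 (two-sided, lmFit followed by eBayes at its defaults) and Benjamini-Hochberg adjustment over all 75212 probe sets. The procedure was tested on data simulated under the limma model itself, with no outlying array and no batches. This checks the code and does not bear on the calls made here. Figures were drawn with matplotlib 3.10.9. Named genes were the 10 family members, the called genes of each list or its 2 largest changes, and the 3 genes most like the brightest PAR and *nfil3* genes. Markers and lists were written from textbook knowledge. Beyond this rule, *clocka*, *clockb*, *bmal1a*, *bmal1b*, *bmal2*, *roraa*, *rorab*, *rorb*, *cpdp*, *neil1*, *pdxkb*, *cyp7a1*, *tshba* and *nfil3-4* were chosen after their values were seen. The members and lists were chosen with earlier results of these data known. Members were matched to RefSeq (GRCz12tu) by Entrez ID for names and neighbours only. According to the methods the samples came from 3 batches of larvae. No label ties a replicate number to a batch. The limma p-values weigh a change against the spread between these samples, with each variance drawn toward a value estimated from all probe sets. Sequences were not used here.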

Additional observations from a re-analysis of the deposited data

How the results depend on the processing

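The direction of 8 of the 10 genes, all but *hlfb* and *nfil3-2*, held under those of the 17 alternatives that could alter it. These were quantile normalization, median centring, array weights and the fits with 1 array left out. The others keep the change itself as it is and bear only on the call. Without WT replicate 1, *hlfb* was at 0.0067 and *nfil3-2* at 0.005, while without WT replicate 3 they were at -0.54 and -0.21. *hlfa* was no longer called with the methods' one-way test after adjustment (change -1.09, adjusted p = 0.170), with replicate number as a replicate block (-1.09, adjusted p = 0.137), or with any 1 array left out (-1.17 to -1.01). Its adjusted p ran from 0.00683 to 0.175 over the adjusted alternatives. The number of genes of the family called was 0 in each of these settings and 2 with the methods' test unadjusted, which added *dbpb*. It was 1 in the others. In the lists around the family, 1 gene was called with the standard settings. The count was 0 with the methods' test adjusted and 10 unadjusted, 2 with an intensity trend and robust prior (*nr1d1* and *pdxka*), 3 over the probe sets that name 1 gene, 2 without the dimmest 33.3% of probe sets, 0 with the replicate block and 0 to 1 with 1 array left out. Without *nfil3-6*, an alternative chosen after seeing the data, the mean change of the repressors was -0.10 and the balance of PAR over *nfil3* genes -0.43. Over all probe sets, 224 were called, against 3 with the methods' test adjusted, 2447 unadjusted and 1 with the replicate block. Same-numbered samples had correlations of 0.01 to 0.10 in their deviations from the group means. *il7r*-/- replicates 1 and 3 correlated best with their own number in WT and replicate 2 did not. With 3 arrays a group, this cannot decide whether the numbers mark pairs. No label ties them to batches, so the main fit had no block, and the fit with the block called fewer probe sets. With 3 arrays a group, an absent call does not show an unchanged gene.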

Other observations

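The genes most like the brightest PAR gene, *hlfa*, over the 6 arrays were *arhgap22b* with a Pearson correlation of 0.998, *gpank1* with 0.998 and *nucb2a*, the precursor gene of nesfatin, with 0.997. Their changes were -0.34, -0.26 and -0.66, and none was called. *nfil3-5*, the brightest of the *nfil3* genes, was most like *trak1a*, a gene of mitochondrial transport, the Hox gene *hoxc8a* and the titin gene *ttn.1*, with correlations of 0.9999, 0.997 and 0.995 and changes of 0.19, 0.40 and 0.21. With so few arrays in 2 groups such values come easily, and outside the lists 357 genes had a correlation over 0.95 with *hlfa* and 128 with *nfil3-5*. *nfil3-4*, a further *nfil3* gene outside the set, lay near the array's background, at 1.81, 1.91 and 1.63 in *il7r*-/- larvae and at 1.76, 1.65 and 1.54 in WT larvae, with overlapping groups.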
